A study of Mus musculus with 24 samples.

Results

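The comparison described here is that of mouse ovarian surface epithelial (mOSE) cells given TGFB1, the cytokine transforming growth factor beta 1, with untreated cells, both grown attached to plastic as monolayers. It rests on 6 of the 24 libraries in the series, which has 8 groups of 3. The 3 TGFB1 monolayer libraries came from the mOSE line m1102 with TGFB1 at 10 ng/mL, and the 3 untreated monolayer libraries from the same line without it. Poly(A) RNA was sequenced, and the labels used here do not say for how long monolayers were treated. All 6 monolayer libraries are marked in their titles as re-analysed, m1102 is 1 line, and the labels of untreated libraries 1 and 2 cite the same earlier sample although their values differ (r = 0.991). No label says that the libraries of a group came from separate cultures, so the p-values measure the spread between libraries only. That spread was estimated over these 6 libraries and 6 spheroid libraries in 1 fit. Where spheroids are brought in, they are 3 TGFB1-treated and 3 untreated libraries of the same line in low-attachment culture, with TGFB1 given over 4 days before it. Where Snail is brought in, it is 3 libraries of m1102 with a Snail lentiviral vector against 3 with the empty WPI vector.

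TGFB1 binds the receptor pair TGFBR2 and TGFBR1, which phosphorylates SMAD2 and SMAD3. These join SMAD4, enter the nucleus and change transcription of matrix, protease and feedback genes. In many epithelia the pathway is known for epithelial-mesenchymal transition (EMT), in which junction and keratin genes are lost and matrix and contractile genes gained. The ovarian surface epithelium is a mesothelium that carries both epithelial and mesenchymal genes in culture.

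Levels are in scaled TPM, transcript abundance per library and per transcript length (TPM) with a scaling factor per library from the authors, and are listed in the order of replicates 1, 2 and 3. A log2 fold change is TGFB1 over untreated on the scale log2(scaled TPM + 1), which understates changes of low genes, and stands with its standard error. A gene was called when its Benjamini-Hochberg adjusted p in limma was under 0.05, and only such a gene is said to have risen or fallen. Of 35687 genes in the table, 13509 had at least 1 scaled TPM in at least 3 of the 12 monolayer and spheroid libraries and were tested. All 12 were in 1 fit, which took the spread within the groups of both cultures together. Over the genes tested, the median SD of log2(scaled TPM + 1) was 0.122 in TGFB1 monolayers and 0.101 in untreated monolayers. It was 0.186 in TGFB1 spheroids and 0.167 in untreated spheroids. Depth per library is unknown.

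The label of the cells was set against markers. The mesothelial genes Msln (mesothelin), Upk1b (a uroplakin), Wt1 and Lrrn4 were present in all 6 libraries, Msln with 372, 410.0 and 417 in TGFB1 monolayers, against 429, 509 and 551 in untreated monolayers. The 13 markers of ovarian surface and mesothelium identity summed to 1212 to 1603 scaled TPM in TGFB1 libraries and 2278 to 2405 in untreated libraries. Of these 13, 11 passed the filter and were tested, with 0 called higher and 4 lower: Krt7, Krt19, Upk3b and Nkain4. That is 36.4% against 7.79% of all genes, with a median log2 fold change of -0.80. Krt18 was at 97.4 to 204 scaled TPM and the mesenchymal filament gene Vim at 904 to 1166. Cdh1 (E-cadherin) did not exceed 0.102 scaled TPM, Krt8 did not exceed 0.406 and Epcam was listed at 0. These epithelial defining markers were thus absent or nearly so in both groups. Krt8 is also a member of the identity list, so not all of that list was present. The 12 leukocyte markers summed to 17.3 to 17.8 scaled TPM in TGFB1 libraries and 27.0 to 37.0 in untreated libraries, with 0 of 3 tested called and Ptprc at or under 0.0822. The 10 endothelial markers summed to 5.94 to 6.82 in TGFB1 libraries and 4.09 to 5.54 in untreated libraries, with 0 of 4 tested called. Ovarian stroma and fibroblast markers summed to 1423 to 1469 in TGFB1 libraries and 2059 to 2216 in untreated libraries, with 1 of 10 tested called higher (Col1a1) and 2 lower (Thy1, -1.66 ± 0.35, and Dcn). Oviductal epithelium markers summed to 426 to 443 in TGFB1 libraries and 619 to 696 in untreated libraries, with 1 of 6 called higher and 1 lower (Krt7). The median log2 fold change was 0.15 in the stroma list and -0.02 in the oviductal list, so neither lower sum describes most members. Granulosa and theca markers summed to 99.8 to 103 in TGFB1 libraries and 90.0 to 95.5 in untreated libraries, with 0 of 7 called. Oocyte markers summed to 7.54 to 9.40 in TGFB1 libraries and 10.4 to 23.9 in untreated libraries, with 1 of 2 called lower.

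In all, 2284 genes were called (16.9% of those tested): 1232 were higher with TGFB1 (9.12%) and 1052 lower (7.79%). Calls of at least 2-fold were 579 (4.29% of genes tested), and made up 320 of the higher genes (2.37% of genes tested) and 259 of the lower genes (1.92%). The libraries of both groups did not overlap for 47.5% of genes tested. The median log2 fold change over all genes tested was 0.01. Protein-coding genes held 2202 of the calls. With equal column sums 62.4% of the calls were higher, with median-of-ratios scaling 47.9%, against 53.9% with the values as deposited.

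**Figure D1:**
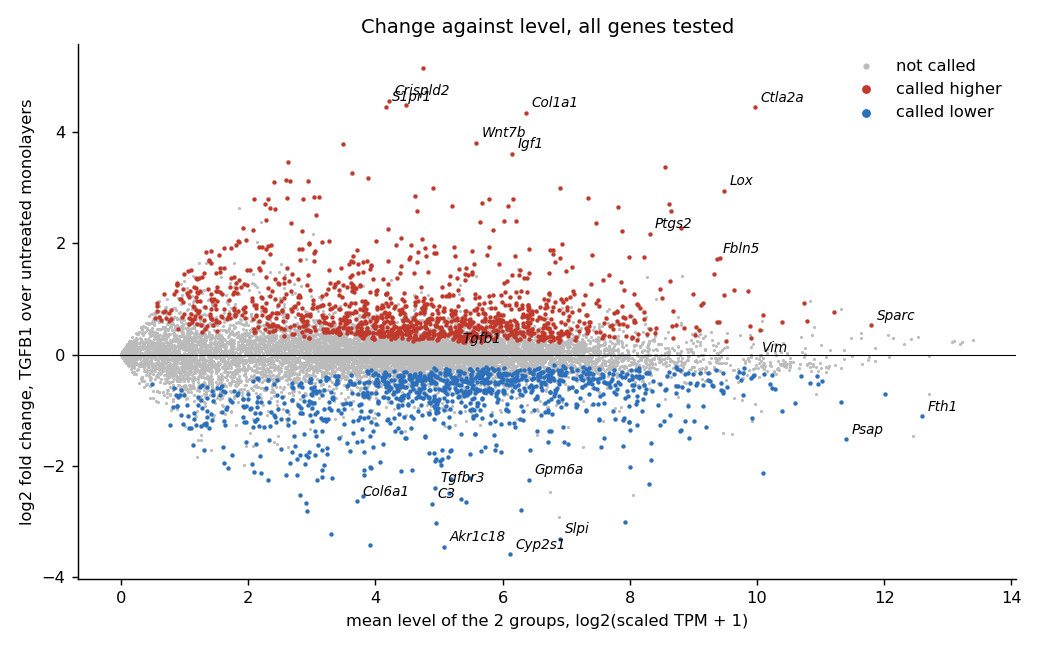
Log2 fold change of TGFB1 over untreated monolayers (y axis) against the mean level of both groups, log2(scaled TPM + 1) (x axis), 1 point per gene tested. Red points are the 1232 genes called higher, blue points the 1052 called lower and grey points the genes not called. Ctla2a and Lox combine a large rise with a high level, and Fth1 and Psap are the most abundant labelled genes that fell.

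TGFB1 library 1 stood apart from the other two TGFB1 libraries. Across genes tested its log2 levels correlated with theirs at r = 0.984 and 0.983, while TGFB1 libraries 2 and 3 correlated at 0.994. It showed the furthest value from the untreated mean in 917 of the 1232 higher genes (74.4%) and 850 of the 1052 lower genes (80.8%). The median log2 difference from the untreated mean over the higher genes was 0.77 in TGFB1 library 1, 0.62 in library 2 and 0.58 in library 3. Over the lower genes it was -0.82, -0.55 and -0.54. Without TGFB1 library 1, 1294 genes were called, 722 higher and 572 lower. Leaving out an untreated library gave similar totals, 1293, 1351 and 1234 without libraries 1, 2 and 3. Of 318 called genes that the naming rule gives, 202 kept their call without each of the 6 libraries in turn. For a named gene that lost it in any of these 6 fits, the highest adjusted p among them is given as "up to". List counts in brackets are the range over these 6 fits. Of 95 list counts above 0, 50 moved by over 1.5 times in at least 1 of these fits: 35, 15 and 13 without TGFB1 libraries 1, 2 and 3, and 39, 37 and 40 without untreated libraries 1, 2 and 3. Each list's share called is to be read against the 9.12% higher and 7.79% lower over all genes. A value after "rose by" or "fell by", or in brackets with its standard error alone, is a log2 fold change.

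**Figure D2:**
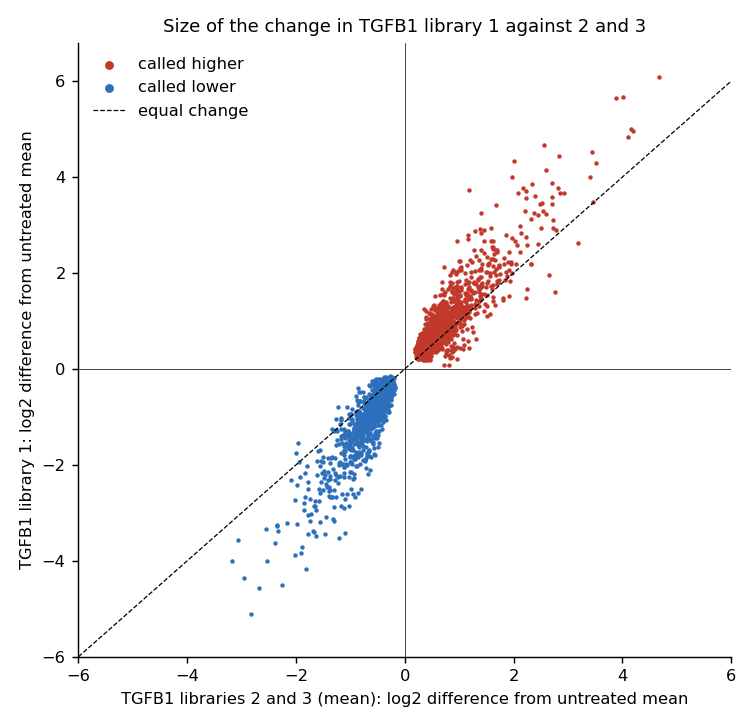
Log2 difference from the untreated mean in TGFB1 library 1 (y axis) against the mean of that in TGFB1 libraries 2 and 3 (x axis), for the 2284 genes called. Most red points lie above the dashed line of equal change and most blue points below it: library 1 was the most changed in 917 higher and 850 lower genes.

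Among the 15 largest rises, Crispld2 (chromosome 8, 119992438 to 120052793 on GRCm38), a secreted glycoprotein gene, had 64.4, 20.8 and 18.9 in TGFB1 monolayers, against 0.286, 0.371 and 0.223 in untreated monolayers (log2 fold change 4.56 ± 0.35, adjusted p = 4.36e-05). S1pr1 (chromosome 3, 115710433 to 115715072), a receptor for sphingosine 1-phosphate, had 46.5, 28.3 and 25.9 in TGFB1 monolayers, against 0.491, 0.513 and 0.577 in untreated monolayers (log2 fold change 4.45 ± 0.20, adjusted p = 7.82e-07). Col1a1 (chromosome 11, 94936224 to 94953042), which encodes the alpha 1 chain of type I collagen, had 214, 136 and 123 in TGFB1 monolayers, against 6.01, 6.74 and 7.02 in untreated monolayers (log2 fold change 4.34 ± 0.18, adjusted p = 7.82e-07). In all 3 each treated library lay far above each untreated one, and library 1 was the highest. Ctla2a (chromosome 13, 60934155 to 60936625), a cathepsin inhibitor gene of the mouse, was by far the most abundant of these, with 2739, 1564 and 1476 in TGFB1 monolayers, against 73.8, 81.9 and 97.8 in untreated monolayers (log2 fold change 4.44 ± 0.31, adjusted p = 2.11e-05). Its near-identical copy Ctla2b also rose (log2 fold change 1.94 ± 0.25, adjusted p = 0.000742), and reads of the pair may be shared. Igf1 (chromosome 10, 87858265 to 87937042), the growth factor, had 169, 113 and 108 in TGFB1 monolayers, against 11.5, 8.47 and 8.92 in untreated monolayers (log2 fold change 3.61 ± 0.29, adjusted p = 5.41e-05).

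Wnt7b, a WNT ligand gene, had 137, 66.3 and 62.7 in TGFB1 monolayers, against 4.65, 5.19 and 5.22 in untreated monolayers (log2 fold change 3.80 ± 0.40, adjusted p = 0.000211). Here, too, each treated library lay above each untreated one, and TGFB1 library 1 was the highest. Others of the 15 largest rises were Ctsw (cathepsin W, 4.48 ± 0.39), Piezo2 (a mechanosensitive channel, 3.78 ± 0.36), Ccl17 (a chemokine, 3.26 ± 0.53), Acsbg1 (an acyl-CoA synthetase, 3.18 ± 0.21), Sult1e1 (estrogen sulfotransferase, 3.13 ± 0.53), Has2 (hyaluronan synthase, 3.12 ± 0.38), Pmp2 and Gm10221. Pmp2, which encodes a lipid-binding protein of myelin, had 10.3, 12.5 and 8.26 in TGFB1 monolayers, against 0, 0.0429 and 0 in untreated monolayers. The processed pseudogene Gm10221 had 88.7, 30.1 and 34.9 in TGFB1 monolayers, against 0, 1.27 and 0 in untreated monolayers, and its reads may come from a related gene.

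The promoters of 3 of the 15 largest rises and of Cyp2s1, the gene that fell most by the naming rule, are shown as examples of strongly changed genes. The window of Akr1c18, next among the falls, holds none of the motifs searched and is not printed, and for Ctla2a the first of its 2 windows is given. Each is the RefSeq window on GRCm38.p6 from 250 bases before to 50 after a start of the gene, 5′ to 3′ on the gene's strand, with capitals for CAGACA (an extended SMAD-binding motif), TGANTCA (the AP-1 motif) or CAGGTG (an E-box bound by Snail and ZEB factors), each searched on both strands. The motif GGAATG of TEAD factors was also searched and is in none of them. The windows are chr8:119992188-119992487 on the plus strand for Crispld2, chr13:60936576-60936875 on the minus strand for Ctla2a, chr10:87860861-87861160 on the plus strand for Igf1 and chr7:25816476-25816775 on the minus strand for Cyp2s1.
Crispld2: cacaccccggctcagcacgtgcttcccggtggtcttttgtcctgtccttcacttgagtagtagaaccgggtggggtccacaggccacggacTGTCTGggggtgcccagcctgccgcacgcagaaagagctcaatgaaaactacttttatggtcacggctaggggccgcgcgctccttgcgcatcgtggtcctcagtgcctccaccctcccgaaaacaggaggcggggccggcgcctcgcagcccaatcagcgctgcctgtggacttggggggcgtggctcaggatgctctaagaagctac
Ctla2a: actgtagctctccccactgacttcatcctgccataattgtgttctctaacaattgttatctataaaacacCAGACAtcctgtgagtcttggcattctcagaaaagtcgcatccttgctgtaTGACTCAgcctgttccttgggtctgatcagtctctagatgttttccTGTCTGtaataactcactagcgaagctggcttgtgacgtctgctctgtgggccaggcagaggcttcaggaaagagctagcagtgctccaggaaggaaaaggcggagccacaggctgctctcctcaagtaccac
Igf1: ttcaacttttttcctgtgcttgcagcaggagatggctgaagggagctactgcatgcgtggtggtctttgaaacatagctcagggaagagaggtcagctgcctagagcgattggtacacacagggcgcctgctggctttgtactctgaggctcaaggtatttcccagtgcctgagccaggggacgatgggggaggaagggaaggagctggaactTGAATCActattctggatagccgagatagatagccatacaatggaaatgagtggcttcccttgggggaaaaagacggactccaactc
Cyp2s1: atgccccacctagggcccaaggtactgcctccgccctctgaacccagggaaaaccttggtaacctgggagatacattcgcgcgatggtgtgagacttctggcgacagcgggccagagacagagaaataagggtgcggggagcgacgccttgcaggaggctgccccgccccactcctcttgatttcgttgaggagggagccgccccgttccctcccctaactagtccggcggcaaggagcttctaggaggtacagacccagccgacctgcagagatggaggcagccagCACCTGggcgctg
Crispld2 holds 1 CAGACA, Ctla2a 2 CAGACA and 1 TGANTCA, Igf1 1 TGANTCA and Cyp2s1 1 CAGGTG. Among genes called at least 2-fold higher with a window (221), CAGACA was in 27.6%, TGANTCA in 12.2%, CAGGTG in 22.2% and GGAATG in 15.8%. Among those at least 2-fold lower (167) the shares were 25.1%, 11.4%, 20.4% and 12.6%. All 27025 genes with a window had 23.6%, 8.97%, 22.6% and 16.6%, and the 9637 of them that were tested 19%, 6.53%, 20.1% and 14.2%. A match is a description of the letters and not a binding site.

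Among the 15 largest falls, Cyp2s1 (chromosome 7, 25802475 to 25816913), a cytochrome P450 gene, had 2.61, 14.8 and 18.5 in TGFB1 monolayers, against 142, 125 and 108 in untreated monolayers (log2 fold change -3.59 ± 0.53, adjusted p = 0.00149). Akr1c18, which encodes the progesterone-inactivating 20-alpha-hydroxysteroid dehydrogenase, had 2.79, 6.26 and 5.26 in TGFB1 monolayers, against 49.3, 56.3 and 77.6 in untreated monolayers (log2 fold change -3.45 ± 0.72, adjusted p = 0.00891). Slpi, a secreted leukocyte protease inhibitor, had 7.93, 32.0 and 32.3 in TGFB1 monolayers, against 245, 195 and 198 in untreated monolayers (log2 fold change -3.31 ± 0.43, adjusted p = 0.000814). In these the treated libraries all lay below the untreated ones, and TGFB1 library 1 was the lowest of the 6. In bulk RNA, fewer cells of a kind and less RNA per cell cannot be told apart. C3, the central complement component, had 3.79, 9.31 and 8.58 in TGFB1 monolayers, against 38.8, 60.0 and 50.7 in untreated monolayers (log2 fold change -2.68 ± 0.55, adjusted p = 0.00802). Col6a1, a type VI collagen chain, had 0.479, 4.56 and 4.17 in TGFB1 monolayers, against 25.6, 20.8 and 16.8 in untreated monolayers (log2 fold change -2.64 ± 0.50, adjusted p = 0.00534). Nid2, the basement membrane gene nidogen 2, had 2.74, 16.9 and 18.9 in TGFB1 monolayers, against 65.8, 73.6 and 58.8 in untreated monolayers (log2 fold change -2.60 ± 0.55, adjusted p = 0.00906).

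The rest of the 15 largest falls were Cyp2f2 (another P450, -3.42 ± 0.32), Crxos (-3.23 ± 0.57), Plekha6 (-3.03 ± 0.40), Ugt1a7c (a glucuronosyltransferase, -2.80 ± 0.44), Gda (guanine deaminase, -2.66 ± 0.39), Ifi27l2a (interferon-inducible, -2.65 ± 0.40), Pcp4l1, Gm9803 and Amhr2. Amhr2, the receptor of anti-Müllerian hormone, had 0.628, 5.18 and 5.19 in TGFB1 monolayers, against 23.5, 26.2 and 17.5 in untreated monolayers (log2 fold change -2.54 ± 0.66, adjusted p = 0.0239, up to 0.0932). Pcp4l1 fell to 17.6, 82.5 and 92.7 in TGFB1 monolayers, against 416, 454 and 393 in untreated monolayers (log2 fold change -3.00 ± 0.79, adjusted p = 0.0247, up to 0.0969). Gm9803 had 0, 0 and 2.04 in TGFB1 monolayers, against 5.48, 4.66 and 27.6 in untreated monolayers (log2 fold change -2.81 ± 0.87, adjusted p = 0.0497, up to 0.178), a spread over its untreated libraries that a single one of them sets.

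**Figure D3:**
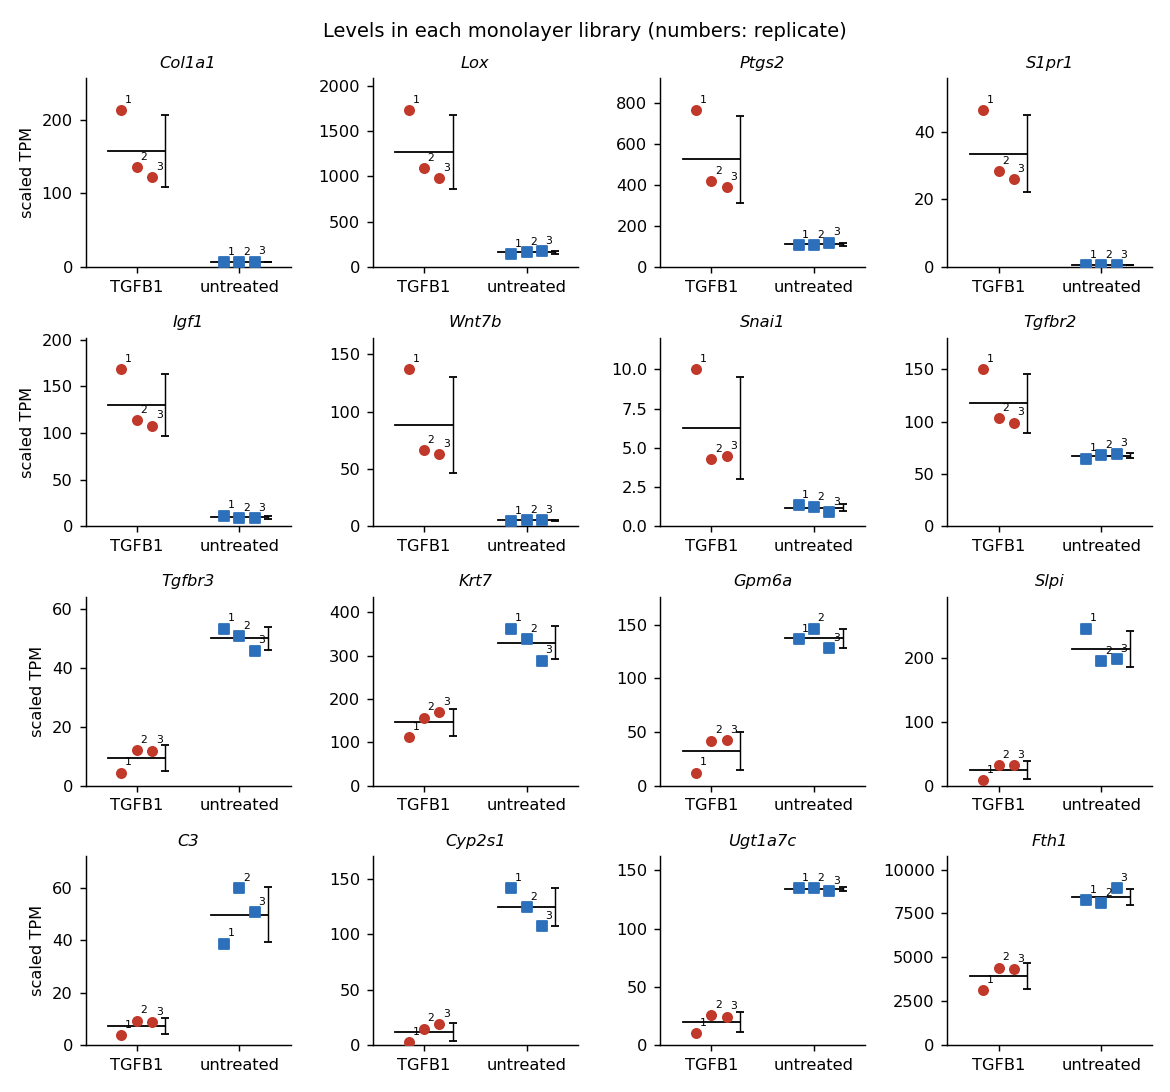
Scaled TPM (y axes, from 0) of 16 genes in the 3 TGFB1 libraries (red circles, left) and the 3 untreated libraries (blue squares, right), numbered by replicate, with the mean as a line and the SD as a bar. TGFB1 library 1 is the furthest from the untreated libraries in each panel, as for Ptgs2 with 765 against 417 and 387 scaled TPM in libraries 2 and 3, and no panel has overlapping groups.

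The pathway's components are given from ligand to target. Transcripts of the ligand Tgfb1 were at 40.2, 38.8 and 39.1 in TGFB1 monolayers, against 34.6, 36.5 and 38.7 in untreated monolayers (log2 fold change 0.10 ± 0.13, adjusted p = 0.665). Those of the type I receptor Tgfbr1 were at 19.3, 21 and 20.6 in TGFB1 monolayers, against 19.9, 20.4 and 19.8 in untreated monolayers (adjusted p = 0.977). The type II receptor Tgfbr2 had 150.1, 103 and 99.0 in TGFB1 monolayers, against 64.7, 68.1 and 69.3 in untreated monolayers, groups that do not overlap. It did not pass (log2 fold change 0.77 ± 0.26, adjusted p = 0.07), though it did in a fit of the 6 monolayer libraries alone (adjusted p = 0.0208). That 6-library fit called more genes in all, 3585 against 2284, and is quoted for only some of the genes that did not pass. The co-receptor Tgfbr3, betaglycan, had 4.42, 12.1 and 11.9 in TGFB1 monolayers, against 53.4, 50.9 and 45.9 in untreated monolayers (log2 fold change -2.39 ± 0.59, adjusted p = 0.0198, up to 0.0845). Among the 14 tested genes of ligands, receptors and latency, 3 rose (3 in each bracketed fit) and 2 fell (0 to 2). The risers were Ltbp1 and Ltbp3, which hold latent TGF-beta in the matrix (1.86 ± 0.26 and 1.16 ± 0.11), and Itgav, the alpha v integrin chain that takes part in its release (0.94 ± 0.13). Its partner Itgb8 fell (log2 fold change -1.12 ± 0.31, adjusted p = 0.0334, up to 0.0961).

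Of the SMADs, Smad2 (log2 fold change 0.20 ± 0.07, adjusted p = 0.0815), Smad3 (adjusted p = 0.981), Smad4 (adjusted p = 0.68) and the inhibitory Smad7 (log2 fold change 0.29 ± 0.14, adjusted p = 0.205) did not pass. Smad2 passed with equal column sums (adjusted p = 0.0312) and in the 6-library fit (0.0374). In the list of SMADs and feedback genes, 8 of 21 rose (4 to 6) and 1 fell (0 to 1), with a median log2 fold change of 0.34. Pmepa1, a SMAD-induced inhibitor of the pathway, had 523, 332 and 322 in TGFB1 monolayers, against 119, 112 and 109 in untreated monolayers (log2 fold change 1.75 ± 0.23, adjusted p = 0.000754). The related Ldlrad4 rose by 1.47 ± 0.18. The BMP-pathway Smad9 fell (log2 fold change -1.10 ± 0.28, adjusted p = 0.0235, up to 0.0779).

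In the list of TGF-beta and SMAD target genes, known as such from other cells, 12 of 27 rose (6 to 9) and 0 fell, with a median log2 fold change of 0.57. Beside Col1a1 these included Nuak1, a kinase gene (2.40 ± 0.18), Mmp2, a gelatinase (1.99 ± 0.18), and Itgb5, an integrin beta chain (1.30 ± 0.12). Ctgf, a matricellular growth factor gene, had 1258, 436 and 389 in TGFB1 monolayers, against 98.3, 74.7 and 103 in untreated monolayers (log2 fold change 2.70 ± 0.78, adjusted p = 0.0365, up to 0.142). Its groups do not overlap, and TGFB1 library 1 was far above the other treated ones. Ptgs2, cyclooxygenase 2, which makes prostaglandins, had 765, 417 and 387 in TGFB1 monolayers, against 106, 106 and 118 in untreated monolayers (log2 fold change 2.17 ± 0.31, adjusted p = 0.00125). The inhibitor of differentiation genes Id1 and Id3, BMP-SMAD targets, did not pass. Id1 had 209, 394 and 386 in TGFB1 monolayers, against 558, 512 and 545 in untreated monolayers (log2 fold change -0.76 ± 0.29, adjusted p = 0.0978). Id3 had 68.1, 206 and 208 in TGFB1 monolayers, against 295, 281 and 295 in untreated monolayers (log2 fold change -1.02 ± 0.38, adjusted p = 0.0936).

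In the list of BMP, activin and Id genes 7 of 28 rose (3 to 6) and 2 fell (1 to 2). Gdf6, a BMP-family ligand, had 132, 82.3 and 72.5 in TGFB1 monolayers, against 13.2, 9.71 and 15.2 in untreated monolayers (log2 fold change 2.79 ± 0.29, adjusted p = 0.000197). Fstl1, which binds such ligands, had 301, 293 and 292 in TGFB1 monolayers, against 107, 108 and 116 in untreated monolayers (log2 fold change 1.42 ± 0.14, adjusted p = 0.000169). Id4 fell (log2 fold change -1.37 ± 0.30, adjusted p = 0.0113).

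Of 8 EMT transcription factors tested 2 rose (1 to 2), 25% against 9.12% of all genes, and 1 fell (1), 12.5% against 7.79%. Snai1, the repressor Snail, had 10.0, 4.26 and 4.49 in TGFB1 monolayers, against 1.36, 1.21 and 0.920 in untreated monolayers (log2 fold change 1.66 ± 0.31, adjusted p = 0.00542). Its level stayed low, and TGFB1 library 1 was the highest. Snai3 fell by 1.01 ± 0.18 and Tcf3, which encodes an E-protein, rose (log2 fold change 0.54 ± 0.12, adjusted p = 0.0137, up to 0.059). Snai2 (adjusted p = 0.802), Zeb1 (log2 fold change 0.21 ± 0.12, adjusted p = 0.249) and Zeb2 (adjusted p = 0.726) did not pass. Neither did Twist1, which had 36.5, 48.6 and 45.2 in TGFB1 monolayers, against 54.3, 60.9 and 59.6 in untreated monolayers (log2 fold change -0.42 ± 0.21, adjusted p = 0.212).

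Of 39 tested cadherin and protocadherin genes 7 rose (3 to 6) and 0 fell. Cdh11, a cadherin of mesenchymal cells, had 186, 113 and 106 in TGFB1 monolayers, against 33.7, 35.0 and 34.5 in untreated monolayers (log2 fold change 1.90 ± 0.27, adjusted p = 0.00129). Cdh2, N-cadherin, had 65.9, 61.9 and 57.3 in TGFB1 monolayers, against 45.6, 49.1 and 46.1 in untreated monolayers and lay just outside the threshold (log2 fold change 0.39 ± 0.12, adjusted p = 0.0522; 0.0117 in the 6-library fit). Vim did not pass, with 1166, 923 and 904 in TGFB1 monolayers, against 1072, 977 and 1053 in untreated monolayers (log2 fold change -0.06 ± 0.19, adjusted p = 0.882). In the list of epithelial junction genes 1 of 16 rose (1) and 1 fell (0 to 1): Pkp2, a desmosome plaque gene (0.79 ± 0.15), and Ocln, the tight-junction gene occludin (log2 fold change -1.20 ± 0.28, adjusted p = 0.0159, up to 0.0673).

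Of 23 tested markers of the ovarian surface and mesothelium 8 fell (6 to 8) and 1 rose (1), with a median log2 fold change of -0.64 against 0.01 over all genes. Krt7, a simple-epithelium keratin, had 111, 157 and 170.0 in TGFB1 monolayers, against 362, 338 and 288 in untreated monolayers (log2 fold change -1.19 ± 0.21, adjusted p = 0.00382). Gpm6a, a membrane glycoprotein gene, had 12, 42.0 and 42.7 in TGFB1 monolayers, against 137, 146 and 128 in untreated monolayers (log2 fold change -2.25 ± 0.45, adjusted p = 0.00732). Nkain4 fell by 1.83 ± 0.41. Upk3b, a uroplakin, had 44.6, 137 and 146 in TGFB1 monolayers, against 290.0, 294 and 245 in untreated monolayers (log2 fold change -1.51 ± 0.37, adjusted p = 0.0188, up to 0.0647). Krt19 had 0, 0.353 and 0.367 in TGFB1 monolayers, against 1.96, 1.32 and 1.54 in untreated monolayers (log2 fold change -1.08 ± 0.19, adjusted p = 0.00378). The surface glycoprotein gene Cd200 went the other way, with 376, 241 and 238 in TGFB1 monolayers, against 42.2, 38.7 and 36.1 in untreated monolayers (log2 fold change 2.81 ± 0.26, adjusted p = 0.000123). Msln (log2 fold change -0.31 ± 0.23, adjusted p = 0.417), Upk1b (adjusted p = 0.421) and Wt1 (adjusted p = 0.174) did not pass. In the wider list of intermediate filaments 4 of 20 fell (4) and 3 rose (1 to 2). Prph, peripherin, had 46.0, 148 and 149.6 in TGFB1 monolayers, against 530.0, 485 and 524 in untreated monolayers (log2 fold change -2.33 ± 0.50, adjusted p = 0.00955). The sum of oviductal epithelium markers, which include Krt7, was lower too. Krt7 was the only one of them called lower, and the list had a median log2 fold change of -0.02. The part of its other members in these falls was not tested.

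Of 26 collagen chains tested 5 rose and 2 fell in the 12-library fit and in each fit without 1 monolayer library, with a median log2 fold change of 0.20. Beside Col1a1, Col5a1 had 43.4, 25.2 and 24.7 in TGFB1 monolayers, against 7.03, 6.37 and 7.52 in untreated monolayers (log2 fold change 1.96 ± 0.24, adjusted p = 0.000549). Col5a2 had 1200.3, 1074 and 1037 in TGFB1 monolayers, against 479, 483 and 508 in untreated monolayers (log2 fold change 1.17 ± 0.17, adjusted p = 0.00162). Both encode type V chains, which nucleate type I fibrils. Col4a3 and Col4a4, neighbouring genes of type IV chains on chromosome 1, rose by 2.00 ± 0.17 and 1.56 ± 0.14. The partner of Col1a1, Col1a2, was at 145, 143 and 139 in TGFB1 monolayers, against 134, 156 and 128 in untreated monolayers (adjusted p = 0.964), and Col3a1 did not pass (adjusted p = 0.249). The type IV genes of highest level, Col4a1 and Col4a2, did not pass either (log2 fold changes 0.50 ± 0.19 and 0.44 ± 0.15, adjusted p = 0.0961 and 0.0621). Col6a2, the neighbour of Col6a1 on chromosome 10, had 0.0393, 0.143 and 0.293 in TGFB1 monolayers, against 2.37, 1.64 and 1.32 in untreated monolayers (log2 fold change -1.25 ± 0.19, adjusted p = 0.00199).

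Of 25 genes whose products modify and cross-link collagen 13 rose (9 to 12) and 2 fell (2), with a median of 0.44. Lox, lysyl oxidase, had 1736, 1093 and 981 in TGFB1 monolayers, against 139, 166 and 173 in untreated monolayers (log2 fold change 2.95 ± 0.27, adjusted p = 0.000129). Bmp1, the procollagen C-proteinase, had 143, 117 and 114 in TGFB1 monolayers, against 40.0, 45.5 and 47.9 in untreated monolayers (log2 fold change 1.46 ± 0.16, adjusted p = 0.00036). P3h1, a prolyl hydroxylase gene, rose by 1.05 ± 0.10. Fkbp10 and Serpinh1, collagen chaperones of the endoplasmic reticulum (ER), rose by 0.87 ± 0.15 and 0.58 ± 0.11. Pcolce, an enhancer of procollagen cleavage, fell by 0.92 ± 0.15.

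Of 24 matrix glycoprotein genes 7 rose (5) and 2 fell (1 to 2). Thbs1, thrombospondin 1, had 1388, 939.5 and 842 in TGFB1 monolayers, against 293, 304 and 326 in untreated monolayers (log2 fold change 1.74 ± 0.23, adjusted p = 0.000796). Fbln5, the elastic-fibre gene fibulin 5, had 1049.6, 1037 and 953 in TGFB1 monolayers, against 289, 300.2 and 332 in untreated monolayers (log2 fold change 1.72 ± 0.31, adjusted p = 0.00398), with treated libraries that lay close together. Fbn1, fibrillin 1, rose by 1.37 ± 0.21 from a low level. Sparc, a collagen-binding glycoprotein, had 3845, 4398 and 4387 in TGFB1 monolayers, against 2828, 3008 and 2901 in untreated monolayers (log2 fold change 0.53 ± 0.09, adjusted p = 0.00391), a small relative and large absolute difference. Fn1, fibronectin, had 281, 280.0 and 271 in TGFB1 monolayers, against 159, 148 and 185 in untreated monolayers (log2 fold change 0.76 ± 0.22, adjusted p = 0.0385, up to 0.123).

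Of 20 basement membrane genes 7 rose (6) and 3 fell (3), median 0.47. Pxdn, peroxidasin, which cross-links type IV collagen, had 87.4, 81.2 and 79.7 in TGFB1 monolayers, against 21.5, 24.8 and 24.0 in untreated monolayers (log2 fold change 1.78 ± 0.18, adjusted p = 0.000171). The laminin chain gene Lama1 had 221, 247 and 242 in TGFB1 monolayers, against 91.6, 106 and 95.7 in untreated monolayers (log2 fold change 1.27 ± 0.23, adjusted p = 0.00433). Lamb1 rose by 0.71 ± 0.16 while Lama4 fell by 0.72 ± 0.15.

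Proteoglycan and hyaluronan genes had the highest median of the lists, 0.82: 9 of 19 rose (8 to 9) and 3 fell (2). Has2 had 14.9, 8.36 and 7.72 in TGFB1 monolayers, against 0.271, 0.181 and 0.299 in untreated monolayers (log2 fold change 3.12 ± 0.38, adjusted p = 0.000597). The hyaluronidase gene Hyal1 rose by 1.68 ± 0.33, the glypican genes Gpc1 and Gpc4 by 1.77 ± 0.36 and 0.92 ± 0.10. Cd44, the hyaluronan receptor, had 27.8, 7.44 and 6.50 in TGFB1 monolayers, against 2.30, 1.33 and 2.59 in untreated monolayers (log2 fold change 2.01 ± 0.47, adjusted p = 0.0151, up to 0.0625). Dcn, decorin, a proteoglycan that binds TGF-beta, had 635, 580.1 and 595 in TGFB1 monolayers, against 1223, 1440.0 and 1334 in untreated monolayers (log2 fold change -1.14 ± 0.28, adjusted p = 0.02, up to 0.071). Dcn and Col1a1 are also members of the stroma and fibroblast list, whose sum was lower in TGFB1 libraries, as given above. The median log2 fold change of that list was 0.15. The part of the list's other members in the matrix changes was not tested.

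Of 37 metalloproteinase and TIMP genes 8 rose (8) and 3 fell (2 to 4). Mmp14, the membrane-type collagenase, had 653, 523 and 523 in TGFB1 monolayers, against 224, 245 and 210.1 in untreated monolayers (log2 fold change 1.31 ± 0.17, adjusted p = 0.000766). Adamts16, Adamts4, Adamts8 and Adamts10, secreted proteases, rose by 3.09 ± 0.31, 2.84 ± 0.28, 1.86 ± 0.16 and 1.63 ± 0.18. Timp2, an inhibitor, fell (log2 fold change -0.62 ± 0.15, adjusted p = 0.0168, up to 0.0661). Of 27 plasminogen activation and serpin genes 9 rose (6 to 8) and 1 fell (1). The gene that fell was Plat, tissue plasminogen activator, with 10.2, 19.9 and 19.7 in TGFB1 monolayers, against 51.4, 56.6 and 55.9 in untreated monolayers (log2 fold change -1.72 ± 0.24, adjusted p = 0.00126). Serpina3g, Serpina3h and Serpina3i, which lie in 1 cluster of near-identical copies on chromosome 12, were called higher, and reads may be split among them. Serpina3i had 26.9, 5.29 and 3.96 in TGFB1 monolayers, against 0.358, 0.612 and 0.214 in untreated monolayers. Serpina3h had 17.1, 3.21 and 3.68 in TGFB1 monolayers, against 0.118, 0 and 0.317 in untreated monolayers.

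Of 17 integrin chains 5 rose (5) and 1 fell (0 to 1). Itgb1, the shared beta 1 chain, had 1078, 929 and 895 in TGFB1 monolayers, against 431, 465 and 489 in untreated monolayers (log2 fold change 1.06 ± 0.11, adjusted p = 0.0002). Itgb5 had 368, 312 and 305 in TGFB1 monolayers, against 119.6, 145 and 133 in untreated monolayers (log2 fold change 1.30 ± 0.12, adjusted p = 0.000134). Itga5, of the fibronectin receptor, rose by 1.12 ± 0.22. Of 28 focal adhesion genes 11 rose (9 to 11) and 1 fell (0 to 1), median 0.31. Tns1, tensin 1, had 256, 182 and 174 in TGFB1 monolayers, against 56.9, 74.3 and 70.4 in untreated monolayers (log2 fold change 1.58 ± 0.19, adjusted p = 0.000531). Zyx, zyxin, had 728, 401 and 367 in TGFB1 monolayers, against 220.4, 186 and 223 in untreated monolayers (log2 fold change 1.18 ± 0.26, adjusted p = 0.0113). Actn1, alpha-actinin 1, rose by 0.93 ± 0.16. Of 26 contractile genes 9 rose (4 to 5) and 1 fell (0 to 1). Cald1, caldesmon, had 2308, 2227 and 2212 in TGFB1 monolayers, against 1082, 1243 and 1218 in untreated monolayers (log2 fold change 0.93 ± 0.20, adjusted p = 0.0106). Csrp2, a smooth-muscle LIM protein gene, rose by 1.82 ± 0.23. The smooth-muscle genes Acta2, named after its values were seen, and Tagln did not pass. Acta2 had 2082, 1781 and 1623 in TGFB1 monolayers, against 1326, 1371 and 1713 in untreated monolayers (adjusted p = 0.739). Tagln had 3027, 2165 and 2057 in TGFB1 monolayers, against 1089.8, 1169 and 1452 in untreated monolayers (log2 fold change 0.95 ± 0.31, adjusted p = 0.0576). The 12 smooth-muscle and pericyte markers summed to 8.55 to 13.8 scaled TPM in TGFB1 libraries and 2.43 to 4.08 in untreated ones, and 1 of 5 tested, Cnn1, was called (1.55 ± 0.31); their part in the result was not tested.

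Of 29 ER chaperones 17 rose (9 to 15), 58.6%, and 1 fell (1), with a median of 0.44. Without TGFB1 library 1 the share was 31.0%, against 5.34% of all genes, 42.1% of proteoglycan and 36.0% of collagen-modifying genes. The chaperone and collagen-modifying lists overlap in membership, so their shares are not separate results. The changes of ER chaperones were small. Hsp90b1, the ER HSP90, had 1386, 1370.5 and 1329 in TGFB1 monolayers, against 822, 836 and 839.8 in untreated monolayers (log2 fold change 0.71 ± 0.11, adjusted p = 0.00215). Hyou1, another ER chaperone, had 275, 225 and 216 in TGFB1 monolayers, against 121, 117 and 124 in untreated monolayers (log2 fold change 0.97 ± 0.14, adjusted p = 0.00149). Creld2 rose by 0.79 ± 0.11. Pdia3 and Pdia4, disulfide isomerases, rose by 0.52 ± 0.08 and 0.58 ± 0.08. Hspa5, the main ER HSP70, had 1473, 1208 and 1211 in TGFB1 monolayers, against 808, 863 and 887 in untreated monolayers and did not pass (log2 fold change 0.60 ± 0.20, adjusted p = 0.0634). Of 61 genes of ER translocation and vesicle transport 10 rose (3 to 8) and 1 fell (1). Creb3l2, a transcription factor of secretory capacity, had 145, 101 and 98.9 in TGFB1 monolayers, against 39.2, 39.4 and 37.5 in untreated monolayers (log2 fold change 1.52 ± 0.19, adjusted p = 0.000723). In the list of integrated stress response genes 1 of 23 rose (1) and 1 fell (0 to 1). Nupr1, a stress-induced nuclear protein gene and the one that rose, had 690.1, 767 and 753 in TGFB1 monolayers, against 129.8, 171 and 155 in untreated monolayers (log2 fold change 2.28 ± 0.32, adjusted p = 0.00128).

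WNT genes were called at 11 of 33 higher (10 to 11) and 3 lower (1 to 3). Beside Wnt7b, Wnt5a had 60.1, 36.3 and 31.0 in TGFB1 monolayers, against 5.40, 6.65 and 5.86 in untreated monolayers (log2 fold change 2.59 ± 0.21, adjusted p = 5.32e-05). Wnt9a had 93.6, 60.5 and 56.5 in TGFB1 monolayers, against 20.8, 21.7 and 22.2 in untreated monolayers (log2 fold change 1.62 ± 0.19, adjusted p = 0.000373). Wnt11 rose by 2.37 ± 0.23 and the secreted WNT inhibitor gene Dkk2 by 1.89 ± 0.19, while Fzd4 fell by 1.16 ± 0.24. Rspo1, a secreted WNT enhancer of the mesothelium, had 8.49, 28.5 and 32.5 in TGFB1 monolayers, against 55.7, 59.3 and 53 in untreated monolayers (log2 fold change -1.43 ± 0.43, adjusted p = 0.0446, up to 0.119). Of 44 genes of the EGF, FGF, PDGF and VEGF families 8 rose (5) and 3 fell (1 to 2). Pdgfa and Hbegf, growth factors for mesenchymal and epithelial cells, rose by 1.42 ± 0.29 and 1.42 ± 0.31. Wisp1, a matricellular gene, had 198, 81.3 and 73.5 in TGFB1 monolayers, against 18.6, 13.4 and 15.7 in untreated monolayers (log2 fold change 2.67 ± 0.30, adjusted p = 0.000316). Vegfd fell by 1.66 ± 0.17.

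In the IGF axis 2 of 16 rose (2) and 2 fell (0 to 2), 12.5% each way and near the share over all genes. Igf1 apart, Igfbp2 rose by 0.74 ± 0.14 from a low level. Igfbp6, a binding protein, had 51.9, 156 and 166 in TGFB1 monolayers, against 284, 429 and 340.3 in untreated monolayers (log2 fold change -1.64 ± 0.41, adjusted p = 0.0204, up to 0.0782). Of 18 NOTCH pathway genes 3 rose (2 to 3) and 1 fell (0). Jag1, a ligand, had 18.9, 5.83 and 5.96 in TGFB1 monolayers, against 1.65, 1.58 and 1.72 in untreated monolayers (log2 fold change 1.89 ± 0.36, adjusted p = 0.00569). Of 48 guidance genes 14 rose (9 to 11) and 4 fell (3 to 4), median 0.49. The semaphorin gene Sema3c had 105, 115 and 111 in TGFB1 monolayers, against 40.1, 37.7 and 43.2 in untreated monolayers (log2 fold change 1.43 ± 0.19, adjusted p = 0.00076). Sema3d had 122, 121 and 116 in TGFB1 monolayers, against 43.9, 41.8 and 50.5 in untreated monolayers (log2 fold change 1.38 ± 0.26, adjusted p = 0.00561). Plxna4, a semaphorin receptor, fell by 1.43 ± 0.21. Of 24 YAP and TEAD target genes 6 rose (5) and 1 fell (0 to 1). Tead2, a TEAD factor gene, had 97.4, 93.4 and 94.3 in TGFB1 monolayers, against 34.5, 43.1 and 35.8 in untreated monolayers (log2 fold change 1.31 ± 0.13, adjusted p = 0.000169).

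Of 27 glutathione, glucuronide and sulfate transferases 8 fell (6 to 7) and 3 rose (3). Ugt1a7c had 9.94, 25.4 and 24.3 in TGFB1 monolayers, against 135, 135 and 132 in untreated monolayers (log2 fold change -2.80 ± 0.44, adjusted p = 0.0021). Ugt1a6b and Ugt1a8 fell by 1.78 ± 0.36 and 1.31 ± 0.23. Ugt1a6a was also called lower (adjusted p = 0.0181, up to 0.0627). These Ugt1a genes share their last exons on chromosome 1, so reads cannot be told apart fully. Their entries in the count of 8 may therefore not be separate falls. Mgst1, a microsomal glutathione transferase, had 141, 319 and 309.7 in TGFB1 monolayers, against 598, 692 and 603 in untreated monolayers (log2 fold change -1.38 ± 0.26, adjusted p = 0.00568). Sult1e1 was among the risers. Of 48 aldehyde and aldo-keto metabolism genes 10 fell (6 to 8) and 0 rose. Aldh6a1 and Adh1 fell by 1.11 ± 0.21 and 1.95 ± 0.39. Of 17 xenobiotic P450 genes 3 fell (2 to 3), 17.6%, and 2 rose (1 to 2), 11.8%, Cyp1a1 among the risers (1.49 ± 0.23).

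Of 28 NRF2 antioxidant targets 7 fell (1 to 5, the 1 being without TGFB1 library 1 or untreated library 3) and 1 rose (0 to 1). Ephx1, epoxide hydrolase, had 105, 195 and 194 in TGFB1 monolayers, against 432, 514 and 487 in untreated monolayers (log2 fold change -1.58 ± 0.31, adjusted p = 0.00657). Fth1, the ferritin heavy chain that stores iron, showed the largest absolute fall among called genes, with 3105, 4411 and 4309.9 in TGFB1 monolayers, against 8245, 8074 and 8955 in untreated monolayers (log2 fold change -1.11 ± 0.31, adjusted p = 0.032, up to 0.125). Psap, the lysosomal precursor prosaposin, had 1106, 1549 and 1581 in TGFB1 monolayers, against 3646, 4304 and 4052 in untreated monolayers (log2 fold change -1.52 ± 0.25, adjusted p = 0.00265), the next largest among called genes. In steroid synthesis 3 of 23 fell (1 to 3), 13.0%, and 2 rose (2), 8.70%. Star, which brings cholesterol into mitochondria, had 77.5, 164 and 178 in TGFB1 monolayers, against 318, 287 and 274 in untreated monolayers (log2 fold change -1.15 ± 0.32, adjusted p = 0.0343, up to 0.112). Cholesterol synthesis and uptake genes gave 0 calls of 28 by limma in this fit and without any 1 of the 6 libraries. Of these genes 3 had an unadjusted p under 0.05. Their median log2 fold change was -0.28, and they summed to 1377 to 1620 in TGFB1 libraries and 1650 to 2176 in untreated libraries.

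Of 25 complement and acute-phase genes 10 fell (6 to 9) and 1 rose (1), with a median of -0.47. C1ra, which encodes a protease of the complement C1 complex, had 38.6, 57.2 and 59.4 in TGFB1 monolayers, against 122, 144 and 134 in untreated monolayers (log2 fold change -1.37 ± 0.16, adjusted p = 0.000477). C2 fell by 0.75 ± 0.15, whereas Masp1, a lectin-pathway protease gene, rose by 1.38 ± 0.26. Of 32 interferon and antigen presentation genes 8 fell (5 to 8) and 1 rose (0 to 1). Tapbp, tapasin, had 99.5, 181 and 186 in TGFB1 monolayers, against 359.8, 369.6 and 322 in untreated monolayers (log2 fold change -1.22 ± 0.22, adjusted p = 0.00461). Gbp2, an interferon-induced GTPase, had 4.27, 17.9 and 17.9 in TGFB1 monolayers, against 53.9, 64.5 and 54.5 in untreated monolayers (log2 fold change -2.24 ± 0.50, adjusted p = 0.0125). H2-T23 fell by 1.06 ± 0.19. Of 20 NF-kB genes 5 fell (3 to 5) and 3 rose (1 to 3). Vcam1, a leukocyte adhesion molecule, had 99.8, 120.5 and 113 in TGFB1 monolayers, against 248, 234 and 275 in untreated monolayers (log2 fold change -1.17 ± 0.24, adjusted p = 0.00816). Of 59 chemokine and interleukin genes 7 fell (2 to 5) and 4 rose (3 to 4), shares of 11.9% and 6.78% that are near the 7.79% and 9.12% over all genes. Ccl17 had 45.7, 11.2 and 8.79 in TGFB1 monolayers, against 1.87, 0.319 and 0.667 in untreated monolayers (log2 fold change 3.26 ± 0.53, adjusted p = 0.00265). Ackr4, a scavenging chemokine receptor, had 45.0, 97.5 and 108 in TGFB1 monolayers, against 13.4, 17.3 and 12.4 in untreated monolayers (log2 fold change 2.38 ± 0.30, adjusted p = 0.000631). The leukocyte marker sums given above were also lower in TGFB1 libraries, at levels near 0; their part in these falls was not tested.

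**Figure D4:**
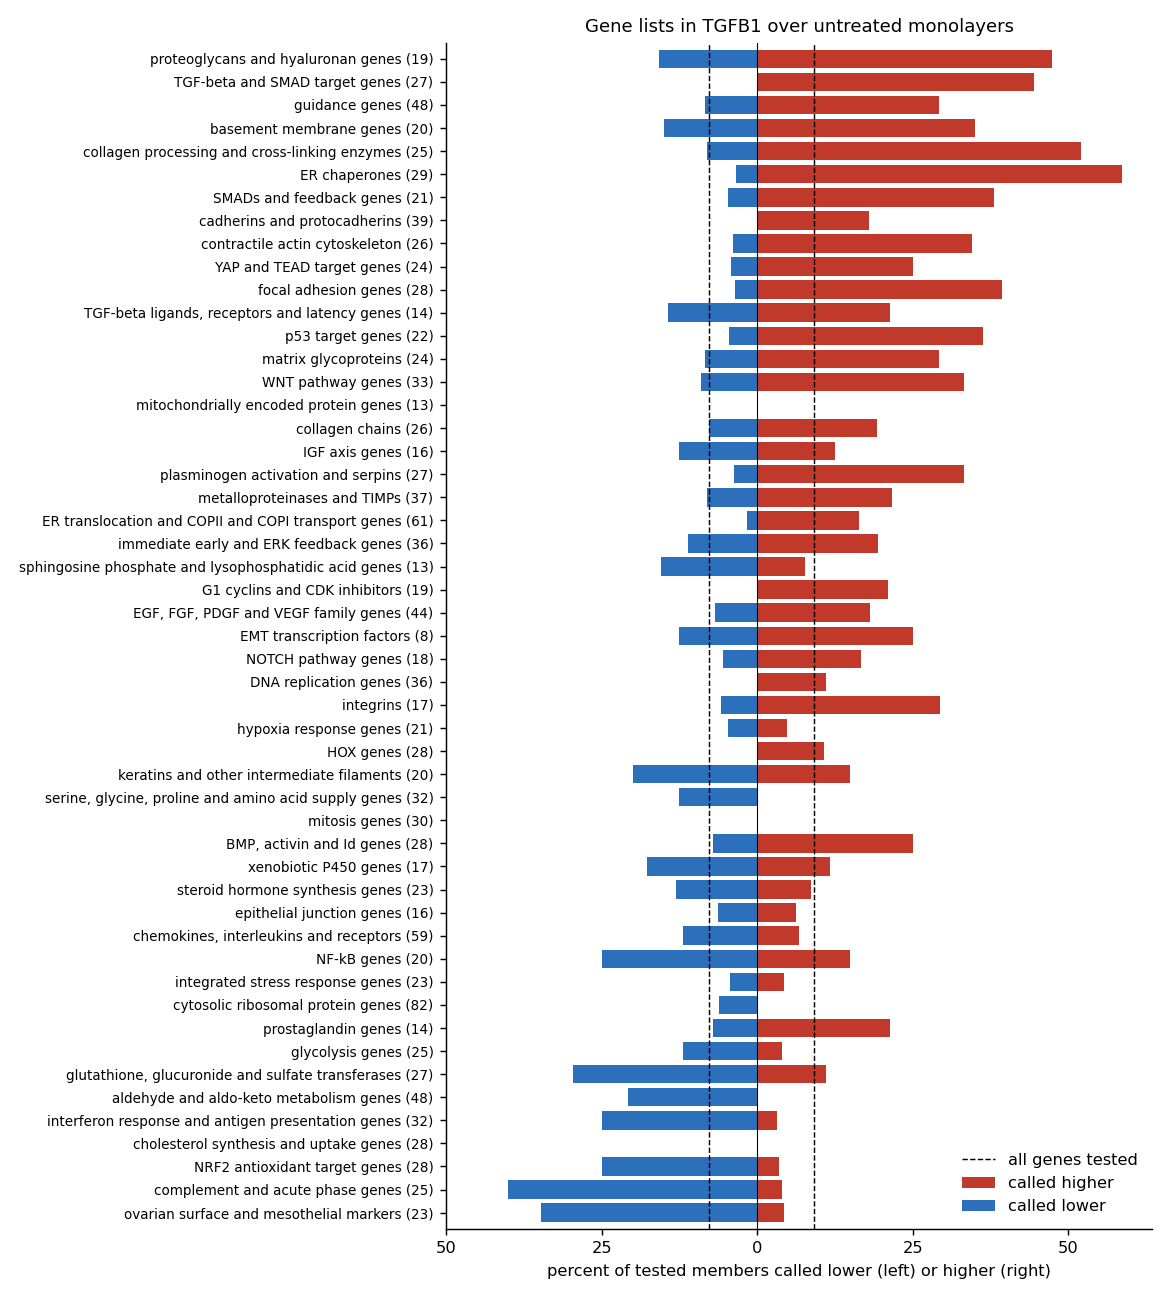
Percent of the tested members of each gene list with at least 8 tested members, cell type marker lists left out, called higher (red, right) or lower (blue, left) in TGFB1 over untreated monolayers, ordered by median log2 fold change, highest at the top, with the number tested in brackets. Dashed lines mark the 9.12% higher and 7.79% lower among all genes tested. Among the lists drawn, ER chaperones extend furthest to the right (17 of 29) and complement genes furthest to the left (10 of 25); without TGFB1 library 1 proteoglycan genes have a larger share of risers than ER chaperones.

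No mitosis gene of 30 was called by limma in the 12-library fit or without any 1 of the 6 libraries, and 1 had an unadjusted p under 0.05. Of 36 replication genes 4 rose (0 to 3), 11.1% against 9.12% of all genes, and 0 fell. Of 19 G1 cyclins and CDK inhibitors 4 rose (2 to 4), 21.1%, and 0 fell (0 to 1). Cdkn1a, the inhibitor p21, had 227, 156 and 155 in TGFB1 monolayers, against 99.7, 74.2 and 86.1 in untreated monolayers (log2 fold change 1.03 ± 0.25, adjusted p = 0.0169, up to 0.0723). Rb1, the cell-cycle inhibitor retinoblastoma gene, had 25.7, 18.5 and 16.5 in TGFB1 monolayers, against 5.64, 6.54 and 4.66 in untreated monolayers (log2 fold change 1.67 ± 0.16, adjusted p = 0.000169). Of 22 p53 targets 8 rose and 1 fell in the 12-library fit. The count of risers was lower without any 1 library: 0, 4 and 5 without TGFB1 libraries 1, 2 and 3, and 1, 1 and 0 without untreated libraries 1, 2 and 3. Of 36 immediate early and ERK feedback genes 7 rose (2 to 7) and 4 fell (2 to 5). Dusp6, an ERK phosphatase, had 159, 138 and 134 in TGFB1 monolayers, against 68.6, 60.6 and 70.6 in untreated monolayers (log2 fold change 1.10 ± 0.19, adjusted p = 0.00325). Egr1, an early transcription factor, had 7.81, 11.8 and 11 in TGFB1 monolayers, against 47.5, 20.9 and 27.8 in untreated monolayers (log2 fold change -1.50 ± 0.31, adjusted p = 0.00856). Of 82 ribosomal protein genes 5 fell (3 to 4) and 0 rose. Ly6a, the stem-cell antigen Sca-1, was near the floor with 0, 0.473 and 0.803 in TGFB1 monolayers, against 0.905, 1.73 and 2.42 in untreated monolayers (log2 fold change -0.91 ± 0.28, adjusted p = 0.0488, up to 0.178), and Brca1 did not pass (adjusted p = 0.575).

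Of 14 prostaglandin genes 3 rose (3), 21.4% against 9.12% of all genes, and 1 fell (1): Ptgs2, Pla2g4a, a phospholipase that frees arachidonic acid, and Abcc4, an exporter, rose, and Akr1c18 fell. HOX genes had 3 of 28 higher (2), glycolysis genes 1 of 25 higher (1 to 2) and 3 lower (1 to 3), hypoxia genes 1 of 21 each way (1 and 1), amino acid supply genes 4 of 32 lower (0 to 1), and mitochondrially encoded genes 0 of 13. The mitochondrially encoded genes had a median log2 fold change of 0.24. They summed to 76185.3 to 82732 scaled TPM in TGFB1 libraries and 64801.5 to 72057 in untreated libraries. Of 13 sphingosine phosphate and lysophosphatidic acid genes S1pr1 rose, and 2 fell (1 to 2), among them Plpp1 (-1.13 ± 0.24).

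The TGFB1 response in monolayers was set against that in spheroids by an interaction, the response in spheroids minus that in monolayers, in the same 12-library fit. Among the 2284 genes called in monolayers the interaction was called for 713 (31.2%), against 15.8% of genes tested, in libraries not shared by the responses. The genes were selected on the estimate that the interaction subtracts, so neither this share nor its direction is read as a result. All monolayer libraries and no spheroid library are marked re-analysed, so culture and origin cannot be told apart. Crispld2 changed by 4.56 in monolayers and 4.49 in spheroids (interaction -0.07 ± 0.50, adjusted p = 0.943), and Thbs1 by 1.74 and 1.75 (0.01 ± 0.32, adjusted p = 0.991), so a difference of the size of these standard errors is not detectable.

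Col1a1 changed by 4.34 in monolayers and 2.30 in spheroids (interaction -2.04 ± 0.26, adjusted p = 0.000732). Gdf6 was called in opposite directions, 2.79 in monolayers and -1.37 in spheroids (-4.16 ± 0.40, adjusted p = 0.000124), and so was Kirrel3, an adhesion gene, 2.23 and -1.98 (-4.22 ± 0.65, adjusted p = 0.00208). Slpi was called lower in monolayers at -3.31 and higher in spheroids at 2.96 (6.27 ± 0.61, adjusted p = 0.000131), and Prg4, the lubricant gene lubricin, at -1.17 and 3.74 (4.91 ± 0.24, adjusted p = 1.11e-06). Tgfb1 itself did not pass in monolayers (0.10) and rose in spheroids (2.96; interaction 2.86 ± 0.19, adjusted p = 8.29e-06). Chil1, a secreted chitinase-like protein gene, had the largest interaction among genes called in both, -0.61 and 6.03 (6.64 ± 0.22, adjusted p = 1.09e-07), and its monolayer call was lost without 3 of the 6 monolayer libraries in turn (adjusted p up to 0.0914).

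**Figure D5:**
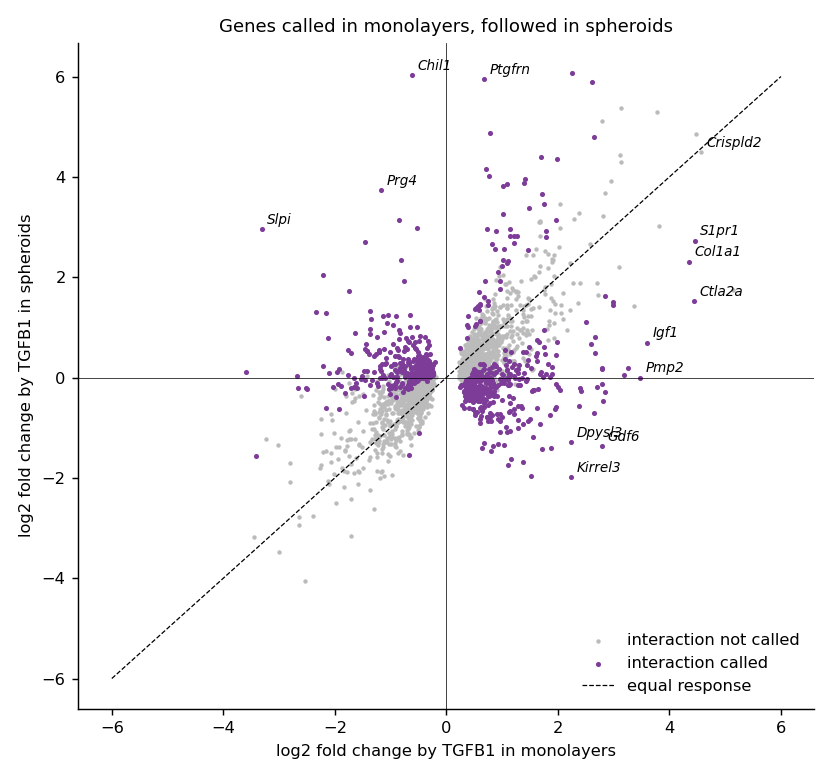
Log2 fold change by TGFB1 in spheroids (y axis) against that in monolayers (x axis) for the 2284 genes called in monolayers. Purple points are the 713 genes with a called interaction, grey points the others, and the dashed line marks equal responses. Crispld2 lies near the line, while Slpi, Prg4 and Chil1 lie at the upper left and Gdf6, Dpysl3 and Kirrel3 at the lower right.

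The monolayer response was also compared with overexpressed Snail in the same line, in a table normalized separately and with no shared library. Of 12152 genes tested in both, 2174 were called with TGFB1 and 210 with Snail (1.72% of the 12240 tested for Snail). Called in both were 77, which is 3.54% of the TGFB1 calls and 36.7% of the Snail calls. Over all 13509 genes tested for TGFB1, a wider set than the 12152 in which the overlap was counted, 16.9% were called. Of the 77, 26 were higher in both and 27 lower in both, 15 were higher with TGFB1 and lower with Snail, and 9 the reverse. Snai1, the gene that the Snail vector overexpresses and 1 of the 77, rose by 1.66 ± 0.31 with TGFB1 and 4.10 ± 0.13 with the vector. In the empty-vector libraries it was at 13.7, 10.1 and 9.81 scaled TPM, above the untreated monolayer values given earlier. On these separately normalized values the rises did not start from the same level. Ocln fell in both (-1.20 with TGFB1, -0.65 with Snail). Col6a1 and Col6a2 fell with TGFB1 (-2.64 and -1.25) and rose with Snail (1.19 and 1.75), and Upk3b likewise (-1.51 and 0.61).

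The authors' deposited table gives a coefficient for the treatment term from sleuth, here divided by ln 2. It has the same sign as the fold change for 2256 of 2256 called genes with a coefficient, and r across genes was 0.918, where genes are not independent replicates. The coefficient comes from the same libraries, so this checks the computation and is not separate evidence. For Col1a1 the authors' deposited table gives 4.53 and for Slpi -3.37.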

How the data were processed

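Poly(A) RNA of 6 monolayer libraries was compared, with 6 spheroid libraries in the same fit. The authors deposited TPM with a scaling factor per library (a signal, not plain TPM as first assumed), from kallisto 0.44.0 and sleuth 0.30.0 on GRCm38, per the submitters' processing notes. The authors' deposited coefficient is on a natural log scale. Column sums ran from 959981 to 1007074 in the monolayer libraries. Read depth is not given in the sources used here, so no counting interval can be given.

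Here log2(scaled TPM + 1) was fitted with limma 3.58.1 in R 4.3.3 (a mean per group, empirical Bayes with a variance trend, two-sided, Benjamini-Hochberg adjustment over all 13509 genes with at least 1 scaled TPM in 3 of 12 libraries). The pipeline was tested on simulated data. Summaries used Python 3.11.15, pandas 2.3.3 and numpy 2.4.6. Among tested genes, 146 entries repeat another entry's symbol and values under a second identifier, 22 of them called; lists count such genes once.

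Named genes were the 15 largest called, non-overlapping changes each way with a group mean of at least 5, per list up to 8 called members and the 4 of highest level, fixed pathway genes, the 10 largest called differences in level each way, and the 5 largest interactions each way. Members and lists were chosen with earlier results of these data known. Alternatives were other scalings, pseudocounts, filters, variance models, library weights, a fit of 6 libraries, a replicate block, averaging untreated libraries 1 and 2, and leaving out each library. Same-numbered libraries were not paired: their deviations correlated at 0.186, 0.137 and -0.0161. Some genes that the naming rule gives are not reported here.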

Additional observations from a re-analysis of the deposited data

Results flagged for a closer look

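Of 20 genes with the largest changes in monolayers that were checked, 9 had a response in spheroids that differed by the interaction test in limma, spheroid minus monolayer. S1pr1 differed by -1.73 ± 0.28 (adjusted p = 0.00248), with 4.45 in monolayers and 2.72 in spheroids, and Ctla2a by -2.92 ± 0.43 (0.00159), with 4.44 and 1.52. Col1a1 differed by -2.04 ± 0.26 (0.000732) and Igf1 by -2.91 ± 0.41 (0.00118), the last with 3.61 in monolayers and 0.69 in spheroids. Pmp2 differed by -3.47 ± 0.22 (5.35e-06) on the log2(scaled TPM + 1) scale, with untreated libraries at or near 0. Among genes that fell in monolayers, Cyp2s1 differed by 3.70 ± 0.74 (0.00762), Cyp2f2 by 1.86 ± 0.45 (0.0191), Slpi by 6.27 ± 0.61 (0.000131) and C3 by 2.72 ± 0.78 (0.0377). The genes were chosen on their monolayer change, which the difference subtracts.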

How the results depend on the processing

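The total of 2284 calls (1232 higher, 1052 lower) was 6431 with library quality weights (3403 and 3028), 3585 in a fit of only the 6 monolayer libraries (1915 and 1670), and 1331 with untreated libraries 1 and 2 averaged as 1 replicate (737 and 594). Leaving out 1 monolayer library gave 1234 to 1751 calls (699 to 918 higher, 535 to 833 lower), from fewer libraries of the groups compared. Leaving out 1 spheroid library, which enters only the estimate of spread, gave 2015 to 2818 calls. The 579 calls of at least 2-fold were 312 with pseudocount 5, which shrinks low genes by construction. They were 375 to 640 with 1 monolayer library left out. The 2138 called interactions were 4385 with quality weights and 1402 to 2741 with any 1 of the 12 libraries left out. With the replicate block 1717 genes were called, 1598 of them shared with the unblocked fit; the libraries share only a number. The causes were not tested otherwise. Of 34 called genes among the largest changes and the pathway genes, 28 kept their call in each of the 17 settings tried and none changed direction. Fits without a spheroid library were not among these settings. Ifi27l2a was lost with pseudocount 0.1 (adjusted p = 0.0673). Scaling moved the median log2 fold change of all genes to 0.05 with equal sums and 0.00 with median-of-ratios, against 0.01. Depth is unknown, so low genes are limited to an unknown degree.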
